A study of Canis lupus familiaris with 11 samples.

Results

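The genes described here encode the ribosome of the mitochondrion and the factors that drive protein synthesis on it. They were taken by name from the gene table of an RNA sequencing study of MDCKII cells, a dog kidney line that grows as a polarised epithelial sheet. The rule took every protein-coding gene whose symbol starts with MRPL or MRPS and a digit, and 8 factors of mitochondrial translation. It gave 68 of the 26178 genes in the table, namely 38 of the large ribosomal subunit, 22 of the small subunit and the 8 factors. Each of these symbols had a single row, so no measured value was needed to pick one.

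Mitochondria keep a ribosome of their own, which makes the few proteins encoded by mitochondrial DNA, all of them parts of the respiratory chain. Its RNAs come from the mitochondrial genome, while its proteins and factors come from nuclear genes, are made in the cytosol and are imported. A large subunit forms the peptide bond and a small subunit reads the messenger RNA. Initiation, elongation, termination and recycling factors act on it in turn, and assembly GTPases help to build it. Epithelial cells of the kidney rely on respiration for ion transport, and MDCKII cells in culture also use glycolysis.

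All 11 libraries came from MDCKII cells grown for 3 to 4 d to a confluent layer, in medium with serum and antibiotics. Wild-type cells (WT) and a derivative with a knockout of LMNA (KO), the gene of the nuclear filament proteins lamin A and lamin C, were either left uncompressed as controls or compressed laterally and given 2 h to recover. This gave 3 libraries each of WT controls, compressed WT cells and compressed KO cells, and 2 of KO controls. The labels do not say whether the KO line is 1 clone, how the sheet was compressed, whether controls were handled alongside, or whether replicates were separate cultures. Handling and recovery time therefore cannot be told apart from compression, and p-values here reflect the scatter between libraries, part or all of which may be technical. The design text of the series speaks of other times and of WT cells only, so the groups follow the sample titles.

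Libraries held 10420214 to 17999623 counts. LMNA stood at 679 to 1208 CPM (counts relative to a library total of 1e6, scaled by TMM) in the WT libraries and at 25.5 to 51.8 CPM in the KO libraries. Each library thus matched its label of genotype, while the label of compression was not checked by LMNA. All 10 epithelial markers were present, and KRT8, a keratin, lay between 1532 and 2922 CPM. The 10 markers of fibroblasts and smooth muscle summed to 23.9 to 31.8 CPM in each library, with the matrix genes DCN and LUM at 0 counts. The 6 endothelial markers summed to 0.0877 to 4.33 CPM and the 8 immune markers to 5.15 to 12.7 CPM, with PTPRC and CD3E at 0 counts. WT compressed 3 and KO compressed 2 had the lowest mean correlation with the other libraries, 0.946 and 0.943. WT control 1 also stood apart, with the members MRPS6 at its highest and MTIF2 at its lowest level of any library. For MRPS6, for MTIF2 and MRPL34 in KO cells and for the count of calls, values without these libraries are given below.

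Of the 68 genes, 63 had enough reads for a test, namely 36 of the large subunit, 20 of the small subunit and 7 factors. The other 5 had next to no reads. MRPL24, MRPL30 and MRPS34 were at 0 counts in every library. TSFM, the exchange factor that recharges the elongation factor TUFM, had 0 to 2 counts per library, and the small subunit gene MRPS36 had 0 to 6. These low counts say little about the genes themselves. The row named TSFM has no intron and lies beside KIF20B and HTR7, whereas RefSeq (assembly UU_Cfam_GSD_1.0) places TSFM beside EEF1AKMT3 and METTL1. MRPL24 lies wholly inside RRNAD1 and MRPS34 wholly inside MAPK8IP3, each on the opposite strand. Those partners had 409 to 1824 and 129 to 682 counts per library.

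Levels of different genes can be compared only per length, so they are given as FPKM, fragments per kilobase of the gene and per 1e6 fragments of the library. The 65 genes with any read spanned a wide range. The small subunit gene MRPS21 was highest, with 329 to 564 FPKM in the 11 libraries and a mean of 441.4 ± 97.6 (SD, n = 11). MRPL20, a large subunit protein with a bacterial counterpart, followed at 308 ± 34.2 FPKM. TUFM, which brings charged transfer RNAs to the ribosome, lay at 176 ± 47.4 FPKM, MRPS6 at 157 ± 108 and MRPS24 at 145 ± 35.2. The MRPS24 row is a single exon of 291 bases on the scaffold JH373418.1. It shares no neighbour with MRPS24 in RefSeq, so its level is uncertain. In WT control 1 MRPS6 stood at 466 FPKM, against 87.1 to 220.4 FPKM elsewhere. TUFM, MRPS6 and MRPS24 lay closer together than their SDs.

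Apart from TUFM and GFM1, the factors lay among or below the lowest ribosomal proteins. MTRF1, a release factor of the termination step, was the lowest of the tested genes at 4.52 ± 1.69 FPKM (SD, n = 11). GTPBP10, a GTPase that acts in assembly of the large subunit, followed at 6.08 ± 1.81 FPKM. The large subunit gene MRPL50 lay at 9.23 ± 1.74 FPKM, the release factor MTRF1L at 10.6 ± 3.09 and MTIF2, the GTPase of initiation, at 11.03 ± 3.34. GFM2, which splits the ribosome after termination, stood at 11.9 ± 2.25 FPKM. GFM1, the translocase of elongation, stood at 47.5 ± 7.51 FPKM, in the middle of the ribosomal proteins. Neighbours among MRPL50, MTRF1L, MTIF2 and GFM2 did not differ beyond their SDs.

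**Figure D1:**
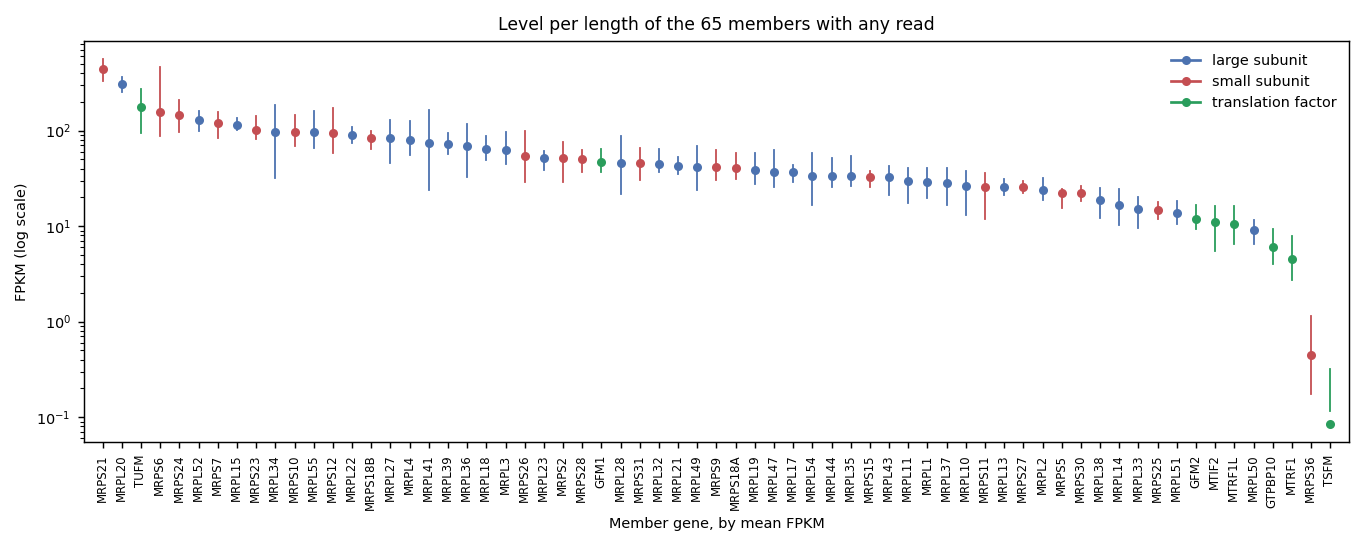
FPKM on a log axis for the 65 genes with any read, ordered by mean. Points are means over 11 libraries, lines run from the lowest to the highest library (0 cannot be drawn on a log axis), and colours mark the large subunit, the small subunit and the factors; MRPS21 leads at 441.4 FPKM, and MTRF1 at 4.52 FPKM is the lowest of the tested genes.

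Within a gene, the steadiest members over the 11 libraries were MRPS15, MRPS18B, MRPL15, MRPS27 and MRPL20, with an SD of log2 CPM between 0.146 and 0.157. MRPS15, for example, lay between 82.5 and 118.9 CPM in all libraries. The most variable were MRPL41 and MRPL34, both of the large subunit, at 0.731 and 0.715, then MRPS6 at 0.671, MRPL54 at 0.554 and MRPL28 at 0.551. MRPS6 was highest in WT control 1, at 219 CPM against 41.3 to 103.7 CPM elsewhere. The other 4 varied across several libraries and were lowest in KO compressed 2 or WT compressed 3.

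The summed level of the 68 genes did not separate compressed cells from controls. In WT controls they summed to 3704, 4248 and 3940 CPM and in WT compressed cells to 4033, 3934 and 4327 CPM. The KO controls gave 3538 and 3755 CPM and the KO compressed libraries 4305, 3473 and 3622 CPM. Groups overlapped within each genotype, and the mean after compression was 1.03 times that of the controls in WT cells and 1.04 times in KO cells. The members took 0.334% to 0.439% of all counts. As in any bulk sample, fewer cells expressing a gene and less RNA per cell cannot be told apart.

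The first comparison asks how these genes differ in WT cells after compression and recovery. Of 63 tested, 6 rose and none fell once p-values from edgeR (quasi-likelihood F test) were adjusted by Benjamini-Hochberg and held to 0.05. The 6 were GTPBP10, MTIF2, MTRF1, MRPL1, MRPL3 and MRPS9. Over all 13560 genes tested, 3.85% were called higher and 2.4% lower. Members called higher made up 9.52%, and their adjusted p-values lay between 0.0410 and 0.0477, close under the threshold. At an unadjusted p under 0.05, 19 members stood higher and 12 lower, beside 15.4% and 16.4% of all genes. In 23 members all compressed libraries exceeded all controls and in 9 they all lay below them, beside 21.2% and 20.8% of all genes. The shares of members on the higher side thus exceeded those of all genes, and on the lower side they were close to or below them. The median log2 fold change of the members was 0.08, with 34 above 0, against -0.02 over all genes.

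Among the members the factors stood highest. They were named one by one in the rule, with earlier results of these data known, so this is a description only. The 13 further translation factors listed below gave 0 calls and a median of 0.19. Of the 7 tested, 3 rose, 6 had a log2 fold change above 0 and their median was 0.74. GTPBP10, the assembly GTPase, lies on chromosome 14 from 16248098 to 16277925, plus strand (this and all coordinates below in CanFam3.1). Its level was 20.6, 21.1 and 19.1 CPM in WT controls and 41.9, 37.9 and 44.4 CPM after compression. The lowest compressed library lay far above the highest control. The log2 fold change was 1.03 ± 0.17 (SE), a 2.04-fold rise, with an edgeR adjusted p of 0.0410.

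MTIF2, which places the initiator transfer RNA, lies on chromosome 10 from 56133651 to 56157562, minus strand. It stood at 14.3, 23.2 and 19.9 CPM in controls and at 38.1, 34.5 and 42.4 CPM in compressed WT cells. The groups were clear of each other, with WT control 1 lowest. The rise was 1.00 ± 0.22 on the log2 scale, or 2.00-fold, with an edgeR adjusted p of 0.0410. MTIF2 shares 7.0% of its span with RPS27A on the opposite strand, which had 9864 to 17740 counts per library. No source used here says whether the libraries mark strand, so reads from that stretch cannot be told apart.

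MTRF1, on chromosome 22 from 9326928 to 9376491, plus strand, codes for a release factor. It stood at 6.77, 6.24 and 5.74 CPM in controls and at 12.4, 9.99 and 14.3 CPM after compression. All compressed libraries exceeded all controls. The rise was 0.97 ± 0.24 on the log2 scale, or 1.96-fold, with an edgeR adjusted p of 0.0435. Its relative MTRF1L, which ends translation at the standard stop codons, had 6.93, 6.57 and 5.80 CPM in controls and 10.4, 7.45 and 14.4 CPM after compression. The groups did not overlap, but the log2 difference of 0.74 ± 0.26 did not pass (edgeR adjusted p = 0.0850).

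Of the elongation factors, GFM1 had 305, 219 and 252 CPM in controls and 331, 312 and 388 CPM in compressed WT cells. Its groups were separate by a small margin, and its log2 difference of 0.41 ± 0.15 did not pass (edgeR adjusted p = 0.0899). TUFM was the factor that stood lower, with 239, 370.5 and 313 CPM in controls and 224, 239 and 165 CPM after compression. Its groups met at 239 CPM, and the log2 difference of -0.55 ± 0.24 did not pass (edgeR adjusted p = 0.127). The recycling factor GFM2 had 24.4, 27.3 and 26.7 CPM in controls and 37.7, 27.1 and 39.8 CPM after compression. Its groups overlapped through WT compressed 2, with a log2 difference of 0.41 ± 0.18 and an edgeR adjusted p of 0.141.

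In the large subunit members lay on both sides of 0. Of 36 tested, 2 rose and none fell by edgeR, with 8 higher and 7 lower at an unadjusted p under 0.05, and DESeq2 called 5 higher and 4 lower. In all 17 were above 0 and the median was -0.05. MRPL1, a protein of the stalk where spent transfer RNA leaves, lies on chromosome 32 from 2363578 to 2457761, plus strand. It stood at 39.9, 26.7 and 30.7 CPM in controls and at 53.1, 50.3 and 56.0 CPM after compression. The compressed libraries were tight and clear of the controls, and the rise was 0.71 ± 0.19 on the log2 scale (edgeR adjusted p = 0.0477). MRPL3, which has a bacterial counterpart near the peptidyl transferase centre, lies on chromosome 23 from 28566016 to 28605603, minus strand. Controls gave 96.7, 84.7 and 78.5 CPM and compressed cells 132, 117 and 168 CPM. WT compressed 3 was highest, and the rise was 0.68 ± 0.17 on the log2 scale (edgeR adjusted p = 0.0428). MRPL19 came next with 41.1, 40.1 and 33.8 CPM in controls, 58.7, 53.2 and 71.4 CPM after compression and a log2 difference of 0.67 ± 0.20 that just missed the threshold (edgeR adjusted p = 0.0549).

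At the other end stood several short large subunit genes, none of which passed by edgeR. MRPL34, on chromosome 20 from 45450000 to 45450472, minus strand, had 28.9, 47.8 and 40.0 CPM in controls and 17.7, 24.8 and 11.3 CPM after compression. Every compressed library lay below every control, yet the scatter within groups was wide and the log2 difference of -1.11 ± 0.36 had an edgeR adjusted p of 0.0660. MRPL54, on chromosome 20 from 55710673 to 55712268, minus strand, had 14.1, 24.2 and 17.8 CPM in controls and 11.5, 11.3 and 7.17 CPM after compression. Its log2 difference was -0.90 ± 0.30 (edgeR adjusted p = 0.0746). MRPL28 had 48.7, 100.4 and 66.1 CPM in controls and 46.5, 44.9 and 24.8 CPM after compression, a log2 difference of -0.89 ± 0.30 (edgeR adjusted p = 0.0760). In all 3 genes WT control 2 was the highest library and WT compressed 3 the lowest of the WT libraries. MRPL41 overlapped between groups, with 30.01, 66.7 and 40.5 CPM in controls and 25.6, 34.2 and 9.89 CPM after compression. Its log2 difference was -0.97 ± 0.41 (edgeR adjusted p = 0.122). MRPL27, whose bacterial counterpart reaches into the peptidyl transferase centre, differed by -0.71 ± 0.25 with an edgeR adjusted p of 0.0860.

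In the small subunit, 1 of 20 rose and none fell by edgeR, with 5 higher and 4 lower at an unadjusted p under 0.05, and DESeq2 called 4 higher and 1 lower. In all 11 were above 0 and the median was 0.02. MRPS9, on chromosome 10 from 38306072 to 38369863, minus strand, is a homologue of a bacterial protein of the subunit head. It had 85.0, 74.9 and 82.9 CPM in controls and 118.6, 110.01 and 157.7 CPM after compression. The groups were separate, and the rise was 0.67 ± 0.17 on the log2 scale (edgeR adjusted p = 0.0448). MRPS21, the highest member per length, had 103, 86.9 and 102 CPM in controls and 143, 129 and 149 CPM after compression. Its groups were as clear, but the log2 difference of 0.53 ± 0.16 did not pass (edgeR adjusted p = 0.0553). MRPS12, whose bacterial counterpart sits at the decoding centre, had 35.8, 72.7 and 48.2 CPM in controls and 29.8, 35.8 and 32.9 CPM after compression, a log2 difference of -0.67 ± 0.25 (edgeR adjusted p = 0.0944). MRPS6 had 219, 51.8 and 67.8 CPM in controls and 58.2, 58.5 and 61.1 CPM after compression, so the groups overlapped and WT control 1 lay far above the rest. Its log2 difference was -0.93 ± 0.42 with that library and -0.01 without it.

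**Figure D2:**
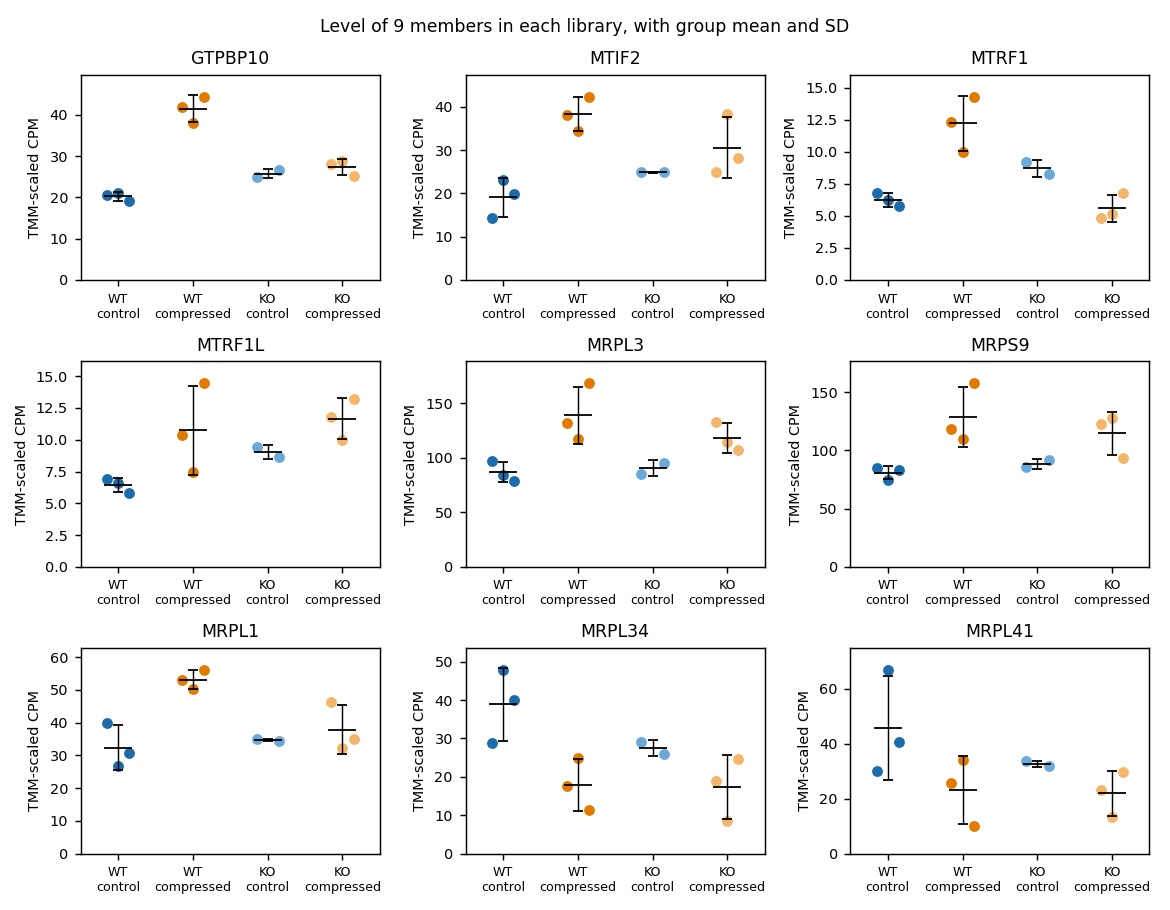
TMM-scaled CPM of 9 members in each library, with the mean (bar) and SD (whiskers) of each group of 2 or 3 libraries. GTPBP10, MTIF2, MTRF1, MRPL1, MRPL3 and MRPS9 lie higher in every WT compressed library than in any WT control, MRPL34 lies lower, and MTRF1 lies at 4.85 to 6.81 CPM in KO compressed cells.

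The 6 calls were not stable to the choice of libraries. Leaving out 1 of the 11 libraries at a time, each of the 6 genes was called in 3 or 4 of the 11 fits, while its log2 fold change kept its sign. The value lay between 0.50 and 0.77 for MRPS9, 0.52 and 0.79 for MRPL3, 0.59 and 0.89 for MRPL1, 0.83 and 1.16 for MTIF2, 0.84 and 1.09 for MTRF1 and 0.98 and 1.09 for GTPBP10. The count of members called ranged from 0, without any WT library other than WT control 1 or without either KO control, to 20 without KO compressed 2. It was 12 without WT control 1, 3 without the 2 compressed libraries that stood apart and 25 (10 higher, 15 lower) without those and WT control 1. DESeq2 called 18 (13 higher, 5 lower), and limma on log2 FPKM called 0.

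The same comparison in KO cells, with only 2 controls, gave no call. Of the 63 members 0 passed the edgeR test, beside 0% of all genes in either direction, and DESeq2 and limma also called 0. At an unadjusted p under 0.05, 1 member stood higher and 2 lower, beside 3.41% and 2.7% of all genes. In 15 members (23.8%) all compressed libraries exceeded the controls and in 10 (15.9%) they all lay below them, beside 13.5% and 14% of all genes. The median was 0.03, with 34 above 0, against -0.00 over all genes. MRPS21 had 88.4 and 90.3 CPM in KO controls and 148, 152 and 109 CPM after compression. All compressed libraries exceeded the controls, with a log2 difference of 0.61 ± 0.18 and an edgeR adjusted p of 0.773. MRPL54 had 18.4 and 18.5 CPM in KO controls and 9.71, 7.10 and 15.3 CPM after compression, a log2 difference of -0.78 ± 0.33 with the same adjusted p by edgeR.

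MTRF1 had the opposite sign in KO cells. It had 9.199 and 8.26 CPM in KO controls and 4.85, 5.17 and 6.81 CPM in KO compressed cells. Every compressed library thus lay below the controls, as in 14% of all genes. The log2 difference was -0.63 ± 0.27 (edgeR adjusted p = 0.773). Its relative MTRF1L lay on the other side of 0, with 9.42 and 8.64 CPM in KO controls, 11.8, 10.00 and 13.2 CPM after compression and a log2 difference of 0.37 ± 0.29. GTPBP10 differed little, with 24.95 and 26.5 CPM in KO controls and 28.1, 28.9 and 25.1 CPM after compression. Its log2 difference was 0.09 ± 0.18, with a 95% interval from -0.31 to 0.48. MTIF2 had 24.8 and 24.9 CPM in KO controls and 24.9, 38.4 and 28.3 CPM after compression, a log2 difference of 0.29 ± 0.25, or 0.10 without KO compressed 2. TUFM differed by -0.33 ± 0.26, GFM1 by 0.14 ± 0.17 and GFM2 by 0.27 ± 0.21.

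Among ribosomal proteins in KO cells, MRPL3 had 85.4 and 95.6 CPM in controls and 133, 114 and 107 CPM after compression, a log2 difference of 0.39 ± 0.19. MRPS31, a protein specific to the mitochondrial ribosome, had 128 and 136 CPM in controls and 187, 189 and 156 CPM after compression, a difference of 0.43 ± 0.21. Neither passed the edgeR test (adjusted p = 0.773 for both). MRPS2 stood lower by -0.52 ± 0.25 and MRPL34 by -0.66 ± 0.39, also short of the threshold. MRPL34 had 29.1 and 26.1 CPM in KO controls and 19.0, 8.42 and 24.6 CPM after compression, and its difference was -0.34 without KO compressed 2.

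**Figure D3:**
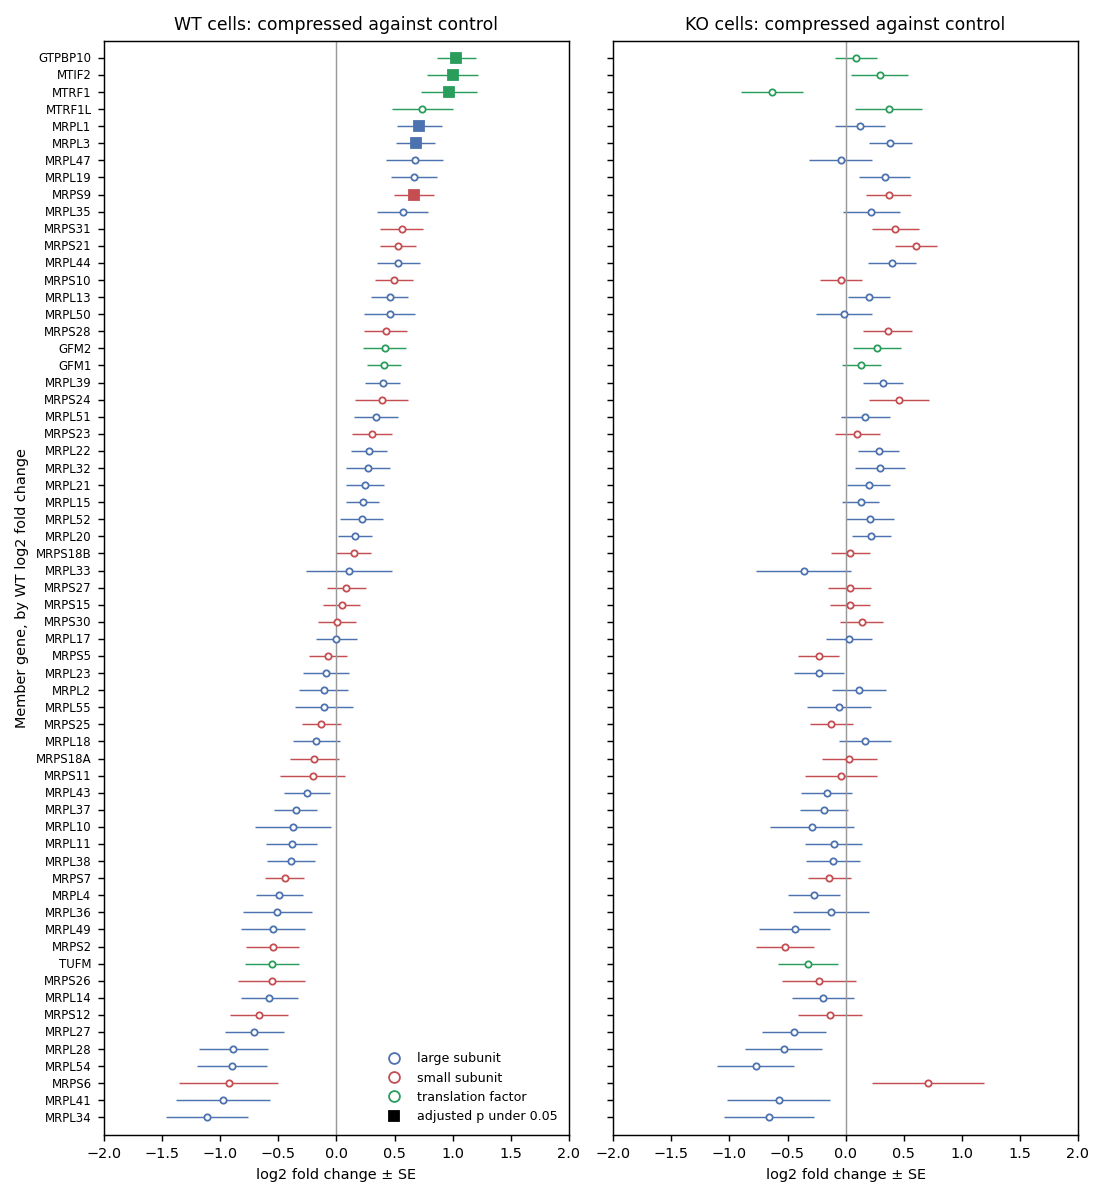
Log2 fold change of compressed over control cells with its SE for the 63 tested members, in WT cells (left, 3 against 3 libraries) and KO cells (right, 3 against 2), ordered by the WT value. Filled squares mark the 6 members with an adjusted p under 0.05, all in WT cells; MTRF1 lies on opposite sides of 0 in the genotypes, and the WT value of MRPS6, -0.93, is -0.01 without WT control 1.

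The WT and KO contrasts use different libraries. The sign of the log2 fold change was the same in 53 of 63 members, or 84.1%, and in 72.8% of all 13560 genes. Across the 63 members Pearson's r between the contrasts was 0.62 and Spearman's rho 0.67, against 0.41 and 0.53 over all genes. These are descriptions across genes, which share the libraries of each contrast and are not independent. The members with opposite signs included MTRF1 at 0.97 and -0.63, MRPS6 at -0.93 (-0.01 without WT control 1) and 0.71, MRPS10 at 0.50 and -0.04 and MRPL47 at 0.67 and -0.04 in WT and KO cells.

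Whether compression acted differently in the genotypes was tested by the interaction term. None of the 63 members passed edgeR's test of it, beside 0% of all genes on either side, and DESeq2 and limma called 0 as well. At an unadjusted p under 0.05, 1 member was higher and 3 lower, beside 2.53% and 2.26% of all genes. MTRF1 ranked first among the members, with an interaction of -1.60 ± 0.36 on the log2 scale (edgeR adjusted p = 0.939). Over the alternatives its value lay between -1.77 and -1.29, and its adjusted p between 0.0516 and 1.00. GTPBP10 had an interaction of -0.94 ± 0.24 and MRPS10, a small subunit protein with a bacterial counterpart, one of -0.53 ± 0.24. MRPS6 had 1.64 ± 0.64, or 0.72 without WT control 1, MRPS12 had 0.54 ± 0.38 and MRPS7 0.31 ± 0.25. For MTIF2 it was -0.71 ± 0.33, for MTRF1L -0.37 ± 0.39, for GFM1 -0.27 ± 0.22, for GFM2 -0.14 ± 0.28 and for TUFM 0.23 ± 0.35.

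Between the genotypes without compression no member differed by the edgeR test, and DESeq2 and limma called 0. Of all genes 0.133% were called higher and 0.206% lower in KO controls. At an unadjusted p under 0.05 no member stood higher and 1 lower, beside 4.59% and 3.2% of all genes. That 1 was MRPS6, with 219, 51.8 and 67.8 CPM in WT controls and 41.3 and 45.0 CPM in KO controls, a log2 difference of -1.39 ± 0.49 (edgeR adjusted p = 0.491). Without WT control 1 it was -0.47. The median of the members was -0.07, with 21 above 0, against -0.01 over all genes. Of the factors at low levels, 4 had values above 0, GTPBP10 by 0.35 ± 0.18, MTIF2 by 0.38 ± 0.24, MTRF1 by 0.48 ± 0.27 and MTRF1L by 0.49 ± 0.29. Their KO controls exceeded every WT control, but none passed. GFM2 differed by -0.16 ± 0.21, with both KO controls below every WT control. In all, 8 members lay wholly higher and 10 wholly lower in KO controls, beside 16.9% and 15% of all genes. TUFM differed by -0.26 ± 0.26 and GFM1 by -0.00 ± 0.17. After MRPS6 the lower members with the smallest p were MRPL37 at -0.43 ± 0.21 and MRPS7 at -0.30 ± 0.19, neither of which passed.

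After compression the KO and WT libraries again gave no call among the members by edgeR, while 0.509% of all genes were called higher and 0.28% lower in KO cells. DESeq2 called 3 members lower and limma none. At an unadjusted p under 0.05 no member stood higher and 4 lower, beside 6.79% and 4.49% of all genes. In KO cells 0 members lay wholly higher and 6 (9.52%) wholly lower, beside 7.92% and 7.82% of all genes. MTRF1 came closest, at 12.4, 9.99 and 14.3 CPM in WT compressed cells and 4.85, 5.17 and 6.81 CPM in KO compressed cells. Every KO library lay below every WT library, with a log2 difference of -1.12 ± 0.24 and an edgeR adjusted p of 0.0557. GTPBP10 differed by -0.60 ± 0.16 and MRPS10 by -0.60 ± 0.16, each with separate groups and edgeR adjusted p-values of 0.141 and 0.134. MRPL1 differed by -0.49 ± 0.19. On the higher side MRPL14 differed by 0.36 ± 0.24, MRPL18 by 0.27 ± 0.20 and MRPL2 by 0.17 ± 0.21, with overlapping groups in each. The median of the members was -0.11, with 19 above 0, against -0.01 over all genes. This contrast shares the WT compressed libraries with the first one, so its values are not independent of the WT differences above.

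A property outside the naming rule went along with these differences, the length of the gene on the chromosome. Members range from 195 bases for MRPL33 to 100920 for MRPS28, with a median span of 7064 bases among those tested. The MRPL33 row is a single exon wholly inside ATL3 on the opposite strand, a gene with 3444 to 7011 counts per library, and shares no neighbour with MRPL33 in RefSeq, so its counts are uncertain. In WT cells the 31 members above this median had a median log2 fold change of 0.41 with 21 above 0, and 17 stood higher and 2 lower at an unadjusted p under 0.05. The 31 below it had a median of -0.17 with 12 above 0, and 2 stood higher and 10 lower. All 6 genes that rose lie above it, while MRPL34, MRPL41, MRPL54 and MRPL28 span 473, 408, 1596 and 1902 bases. Over all tested genes divided at the same length the medians were 0.04 and -0.20. Among all long genes 52.6% were above 0, with 17.9% higher and 15% lower unadjusted, against 67.7%, 54.8% and 6.45% of the long members. Among all short genes 38.9% were above 0, with 9.35% higher and 19.7% lower unadjusted, against 38.7%, 6.45% and 32.3% of the short members. The share above 0 was thus alike for short members and short genes at large.

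Gene density was taken as the number of other genes in a window of 1 Mb in total, centred on the gene. Across the 63 members the WT log2 fold change had a Spearman's rho of 0.54 with span and of -0.64 with this density. Over all genes these were 0.19 and -0.39. In KO cells they were 0.46 and -0.59 for the members and 0.09 and -0.29 for all genes. With the exon length, which the FPKM values divide by, rho in WT members was 0.33. Span and gene density were themselves related, with a rho of -0.60 in the members and -0.29 over all genes. The members above the median span had a median of 11 genes in the 1 Mb window (4 to 44) and those below it 32 (1 to 61), so the ranges overlapped. The value of 1 is that of MRPS24, which lies on the scaffold JH373418.1 and not on a chromosome. MRPL1 spans 94184 bases with 5 genes in its window, while MRPS21 lies above the median span with 44. These are descriptions over genes that share 11 libraries, and base composition was not analysed here.

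The gap can be seen by library as the mean log2 level of the long members minus that of the short ones, each relative to the gene's own mean. It was 0.04, -0.49 and -0.28 in WT controls and 0.20, 0.04 and 0.40 in WT compressed cells. In KO cells it was -0.17 and -0.11 in controls and 0.11, 0.29 and -0.03 after compression. Compressed libraries lay above the controls in each genotype, by a hair where WT compressed 2 met WT control 1 (0.0436 and 0.0427). A like measure was taken over all genes, divided at their own median span of 17668 bases rather than at 7064. It was 0.04, -0.29 and -0.11 in WT controls and 0.10, 0.05 and 0.17 in WT compressed cells. In KO cells it was -0.01 and -0.07 in controls and -0.15, 0.31 and -0.03 after compression. The gap over all genes thus moved in the same direction in WT cells and overlapped in KO cells, and its part in the members' differences was not tested. With each library corrected for span by a loess curve, 9 members were called higher in WT cells and none lower, and the rho with span in the members was 0.38.

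**Figure D4:**
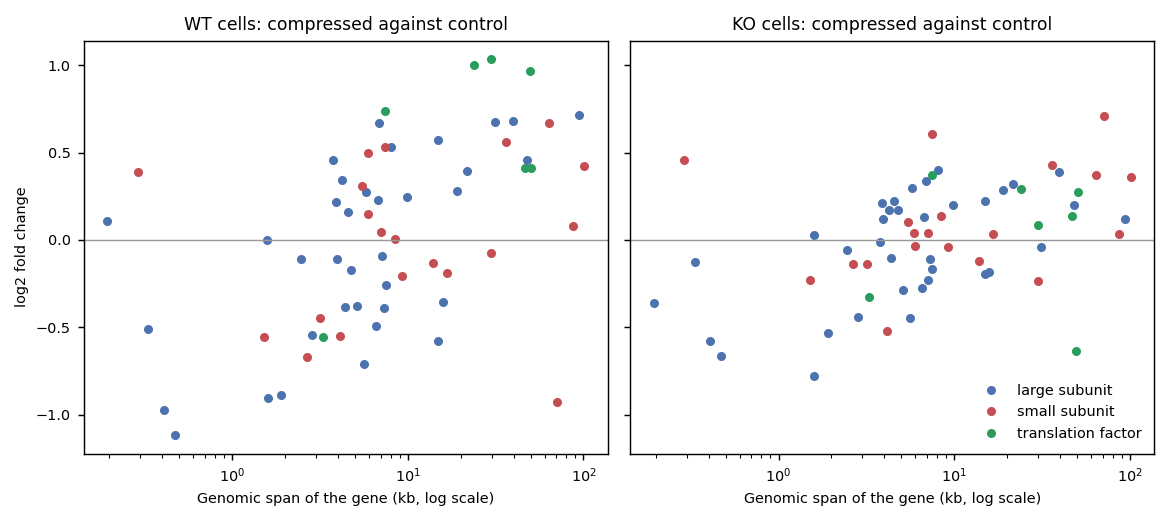
Log2 fold change of compressed over control cells against the genomic span of each of the 63 tested members (kb, log axis), in WT cells (left) and KO cells (right). Long members lie mostly above 0 and short ones mostly below, with a Spearman's rho of 0.54 in WT and 0.46 in KO cells.

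**Figure D5:**
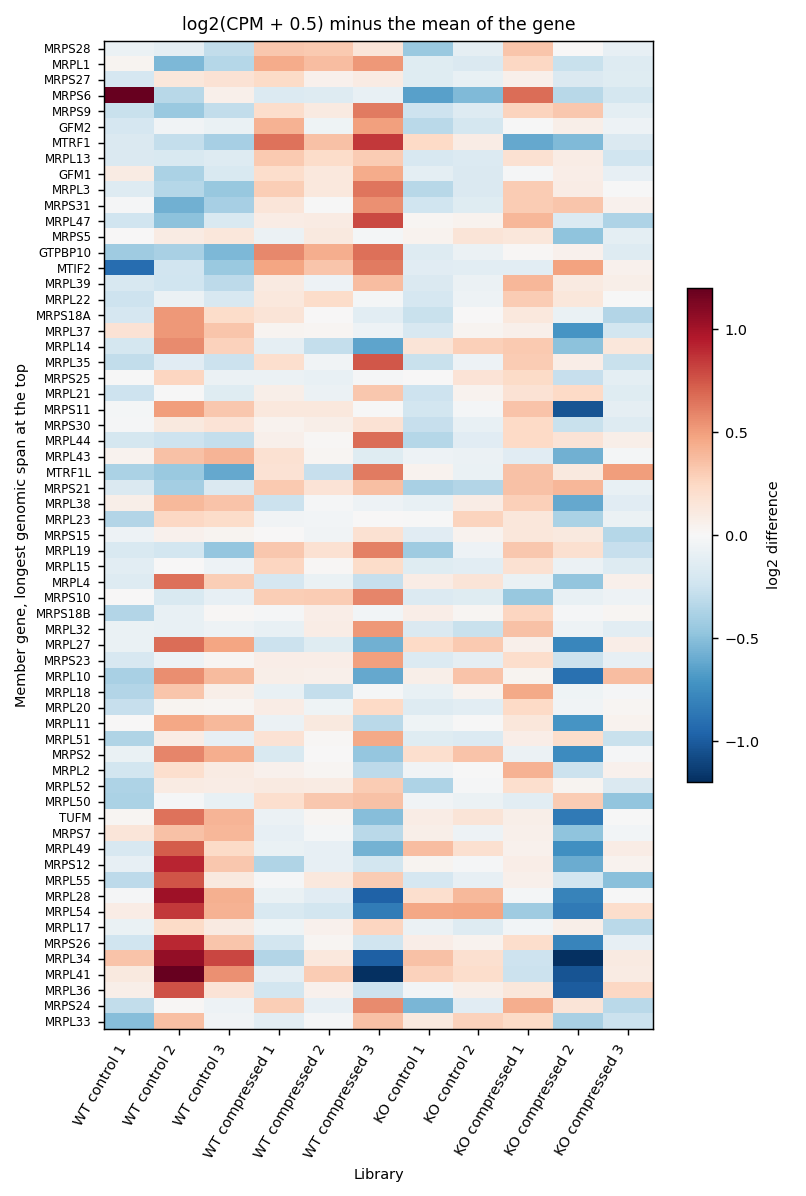
Log2(CPM + 0.5) of each tested member in each of the 11 libraries minus the gene's mean, drawn as colour, with members ordered from the longest genomic span at the top to the shortest. WT compressed 3 is high at the top and low at the bottom, WT control 2 shows the reverse, KO compressed 2 is low at the bottom, and MRPS6 is high in WT control 1.

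Other genes of the same pathway were taken from lists by function. Ribosomal proteins without an MRPL or MRPS symbol, such as DAP3 of the small subunit, gave 0 calls of 6 tested in WT cells, with 1 higher at an unadjusted p under 0.05 and a median of 0.09. Further translation factors, found for 13 of 15 entries, gave 0 of 13, with 3 higher unadjusted and a median of 0.19. Of those entries, C12orf65 (found) and MTRFR (not found) name the same gene. Mitochondrial aminoacyl-tRNA synthetases, found for 15 of 17, gave 0 of 15, with 1 higher and 2 lower unadjusted and a median of -0.10. Ribosome assembly and RNA modification factors, found for 19 of 24, gave 0 of 19, with 2 higher and 7 lower unadjusted and a median of -0.30. All these counts are from edgeR. Of all genes 3.85% were called higher and 2.4% lower, and 15.4% stood higher and 16.4% lower at an unadjusted p under 0.05. DESeq2 called 1 higher among the ribosomal proteins, 1 higher among the factors, 2 lower among the synthetases and 4 lower among the assembly factors, and limma called 0. Of the 19 assembly factors, 5 had a log2 fold change above 0, as GTPBP10 had.

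The list of mitochondrial transcription and biogenesis factors gave 3 of 12 higher and none lower by edgeR in WT cells, with a median of 0.16. Of all genes 3.85% were called higher and 2.4% lower. At an unadjusted p under 0.05, 5 of the list stood higher and 4 lower, beside 15.4% and 16.4% of all genes. The list was divided, with 7 above 0 and 5 below. DESeq2 called 4 higher and 3 lower, and limma on log2(FPKM + 1) called 0. TFAM, which packages mitochondrial DNA and starts its transcription, had 22.6, 22.3 and 16.7 CPM in controls and 39.4, 35.2 and 37.3 CPM after compression. It rose by 0.86 ± 0.19 on the log2 scale (edgeR adjusted p = 0.0410). TFB2M, its partner in initiation, rose by 0.53 ± 0.13 (adjusted p = 0.0435), and GABPA, a nuclear activator of such genes, by 0.74 ± 0.20 (adjusted p = 0.0475), both by edgeR. All 3 calls lay close under the threshold, as those of the members did, and their stability to leaving out libraries was not examined. TEFM, the elongation factor of mitochondrial transcription, differed by 0.85 ± 0.24 and just missed the threshold (edgeR adjusted p = 0.0513). MYC stood lower by -0.68 ± 0.21 without passing. In KO cells TFAM had 29.9 and 22.9 CPM in controls and 21.1, 26.6 and 24.4 CPM after compression, a log2 difference of -0.14 ± 0.21. The list gave 0 calls of 12 in KO cells, beside 0% of all genes. Unadjusted, 0 stood higher and 2 lower, beside 3.41% and 2.7% of all genes.

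Proteins made on the mitochondrial ribosome, their nuclear partners and the cytosolic ribosome were taken as further lists. Of all genes, edgeR called 3.85% higher and 2.4% lower in WT cells and 0% in KO cells. At an unadjusted p under 0.05 the shares were 15.4% higher and 16.4% lower in WT cells. In KO cells they were 3.41% and 2.7%. The 13 protein genes of mitochondrial DNA had a median of -0.32 in WT cells with 0 called by edgeR, 4 lower by DESeq2 and 5 lower unadjusted, and of 0.56 in KO cells with 0 called by either tool and 10 higher unadjusted. They summed to 25002 to 37681 CPM in WT controls, 19948 to 22890 in WT compressed cells, 25080 to 25357 in KO controls and 29712 to 47411 in KO compressed cells. Nuclear genes of the respiratory chain gave 2 of 70 called (2.86%), both higher in WT cells, NDUFS1 and ATP5ME, with a median of 0.13. Cytosolic ribosomal proteins, built into the other ribosome of the cell, gave 5 of 63 higher (7.94%) by edgeR and a median of 0.28 in WT cells. In KO cells 0 were called by edgeR or DESeq2, with 18 higher unadjusted (28.6%) and a median of 0.33. Genes for these proteins have many processed copies, so their counts are less certain.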

How the data were processed

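RNA was measured in 11 libraries of polyadenylated RNA. The submitters' processing notes name CASAVA, FastQC, HISAT2 2.0.5 and the build CanFam3.1. Gene counter, annotation release and strand setting: not given in the sources used here. Counts per gene, deposited as whole numbers, were tested as they stand. The authors' FPKM values, which divide by their gene length, served for levels between genes and as an alternative. All rows name a gene (0 without one), and 0 further sample columns were left aside.

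The members and lists were chosen with earlier results of these data known. Symbols came from the table, and 67 members were found in RefSeq. Testing used edgeR 4.0.16 in R 4.3.3: filterByExpr kept 13560 genes, TMM scaling gave factors from 0.951 to 1.035, and 1 quasi-likelihood fit of 4 group means left 7 residual degrees of freedom. Tests were two-sided and adjusted by Benjamini-Hochberg over all genes tested, with a threshold of 0.05. CPM are TMM-scaled. At depths of 10420214 to 17999623 counts, 1 CPM is only 10.4 to 18.0 reads. The code of the tests was also run on simulated counts. These held no libraries that stood apart, so that run says nothing about how stable the calls are.

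Named are members called in a contrast or, where fewer than 6 were called, the 3 with the smallest p in each direction, the 8 factors in every contrast, the 5 highest and lowest by mean FPKM, the 5 most and least variable, and up to 3 called genes of each other list. MRPL34, MRPL54, MRPL28, MRPL27, MRPS12, MRPL19 and MRPS21 in WT cells, MRPL34 in KO cells, MRPS6 in WT and KO cells, MRPL47, MRPL33, TEFM, MYC, TFAM in KO cells and DAP3 were named after their values were seen. As alternatives served DESeq2 1.42.0, scaling by RLE or by library size alone, filters of none or of 1 CPM in 3 libraries, a robust fit, limma 3.58.1 on log2 FPKM with 1 or 0.1 added over genes of FPKM 1 in 2 libraries, the groups of a contrast alone, a replicate term and leaving out each library. Fits without 2 or 3 libraries that stood apart and a loess correction for span were added after the data were seen. No member symbol had several rows, so none were summed.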

Additional observations from a re-analysis of the deposited data

Results flagged for a closer look

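MTRF1, the mitochondrial release factor, had higher CPM in every WT compressed library than in any WT control and lower CPM in every KO compressed library than in any KO control. The difference between the genotypes was -1.60 on the log2 scale (interaction term, edgeR adjusted p = 0.939), which did not pass after adjustment over all genes. It was the 1 member of 63 tested whose groups were separate in opposite directions in the genotypes. Over all genes, 21.2% lay wholly higher in WT compressed cells and 14% wholly lower in KO compressed cells. The share separate in opposite directions was not counted over all genes, so whether 1 of 63 is unusual was not tested.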

How the results depend on the processing

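Directions were kept widely, calls were not. In WT cells, where 6 members were called after compression, DESeq2 called 18, a fit without a filter 10, the WT groups alone 12, the fit without the 2 compressed libraries that stood apart 3 and that without these and WT control 1 25. Limma on log2(FPKM + 1) and on log2(FPKM + 0.1) called 0. Leaving out 1 library gave 0 to 20. A loess correction for span moved the median of the members from 0.08 to 0.27. Between compressed KO and WT cells, where none was called, DESeq2 called 3, the loess correction 1 and fits that leave out 1 library 0 to 1.

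The fit with the replicate number as a block called 0 members in WT cells and 0 in the other contrasts. Residuals of same-numbered libraries correlated between -0.349 and 0.201 over 15 pairs, and of others between -0.251 and 0.373 over 30. The ranges overlapped. Residuals within a group sum to 0 and the pairs share libraries, so this check cannot decide whether the numbers pair the samples.

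Among the 68 named pairs of gene and contrast, the sign turned in those listed here, given as log2 values. Not all of these were near 0 in the main fit, as with the interaction of MTRF1L. GFM1 between the controls lay between -0.110 and 0.132 when 1 library was left out, at 0.00908 with library size alone, 0.0136 with the replicate block and 0.133 without the 3 libraries. MRPS12 in KO cells lay between -0.250 and 0.0529 when 1 library was left out, at 0.0726 and 0.0527 without the 2 and the 3 libraries and at 0.00234 after loess. Between compressed KO and WT cells, leaving out 1 library gave -0.197 to 0.202 for TUFM, -0.0254 to 0.314 for MRPL2 and -0.0853 to 0.386 for MTRF1L, and TUFM was 0.0776 and 0.0567 without the 2 and the 3 libraries. The interaction of MTRF1L was 0.0106 without the 2 libraries. The cause was not tested. By FPKM the summed level of the members after compression was 0.973 times the controls in WT cells and 1.06 times in KO cells. Depth limits the 5 members with few reads.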

Other observations

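The deposited table holds further genes of the mitochondrial ribosome whose rows do not carry an MRPL or MRPS symbol or are not protein-coding, and were therefore outside the naming rule. By the protein match in the table's description, 35 rows belong to such genes, to TSFM or to their copies; most carry no symbol, and that of MRPL58 carries its older name, ICT1. MRPS35 on chromosome 27 had 986 to 1575 counts per library, and MRPL40 on chromosome 26 had 670 to 1229. In WT cells after compression the small subunit gene MRPS18C differed by 0.72 on the log2 scale, MRPL42 by 0.46, MRPS35 by 0.47, MRPL57 by -0.74 and MRPL16 by -1.198. None of these passed the edgeR test.

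For 3 of the members with next to no reads, another row matches the same protein and was well covered. A row on chromosome 10 named METTL21B, whose protein match is TSFM, had 1172 to 2383 counts per library. An unnamed row on chromosome 10 matching MRPL30 had 454 to 718 counts, and an assembled locus on chromosome 2 matching MRPS36 had 472 to 985. Their log2 differences in WT cells after compression were -0.10 for the TSFM match, 0.55 for the MRPL30 match and 0.77 for the MRPS36 match, none of which passed the edgeR test. These rows were picked after their counts were seen.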
